A study of Mus musculus with 2 samples.

Results

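The genes described here are the mouse replication-dependent histone genes, taken as every gene of the deposited feature list whose symbol begins with Hist1h, Hist2h, Hist3h or Hist4h. The rule found 67 of 31053 genes. They comprise 6 linker histone H1 genes, 18 H2A, 18 H2B, 12 H3 and 13 H4 genes. By cluster, 54 belong to Hist1 on chromosome 13, 10 to Hist2 on chromosome 3, 2 to Hist3 on chromosome 11 and 1 to Hist4 on chromosome 6.

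Replication-dependent histone genes supply the bulk of new histone protein while a cell copies its DNA, and most lie in clusters that are transcribed together. Their mRNAs are unusual in that they normally end just past a short stem-loop instead of in a poly(A) tail. The stem-loop is bound by the protein SLBP, which serves in processing, export, translation and decay of the mRNA. Some members are also known to give longer, polyadenylated transcripts in cells that do not divide. Such cells otherwise draw on replacement histones, whose mRNAs are mostly polyadenylated.

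The series is a single-cell RNA sequencing study of meningeal lymphatic endothelium beside the cribriform plate. The healthy sample pooled cells of 5 wild-type C57BL/6J mice, and the other sample pooled cells of 5 such mice with autoimmune encephalomyelitis (EAE), a model of inflammatory demyelination whose induction is not given in the sources used here. All mice were females of 10 weeks. Cells positive for Podoplanin and CD31, negative for CD45 and free of the Ghost dye that marks dead cells were sorted from cribriform plate, olfactory bulb and parts of the nasal mucosa. The matrix holds 2 libraries told apart by a barcode suffix, called library 1 and library 2 here. The labels do not say which is healthy and which is EAE, so the conditions were not compared. Each library is 1 pool of mice and cells are not replicates, so no test was made. Intervals are exact 95% intervals that cover counting error only.

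The cell filter required 200 or more detected genes and no more than 20% of UMIs from mitochondrial genes, and 3406 of 3838 barcodes of library 1 and 1922 of 2434 of library 2 passed it. The libraries shared 8 barcode sequences, 7 of them among kept cells. Their total depth was 25766058 and 20282053 UMIs. The kept cells went against the label: at least 5 of 7 microglia markers (P2ry12, Tmem119, Cx3cr1, Siglech, Gpr34, Fcrls, Sall1) were detected in 94.4% of library 1 and 78.2% of library 2. In cells without Mki67 and Top2a the 7 microglia markers summed to 9552 and 3286 CPM (UMIs of a gene per 1000000 UMIs of the same cells), against 28.4 and 7.15 CPM for 6 lymphatic markers.

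Mki67 and Top2a, both genes of dividing cells, defined the classes. At least 1 UMI of each was found in 19 cells of library 1 and 61 cells of library 2, called Mki67+Top2a+ cells below. Exactly 1 of the genes was detected in 61 and 217 cells, and neither in 3326 and 1644 cells. Detection depends on depth: the median was 14564 and 15399 UMIs in Mki67+Top2a+ cells against 7320.5 and 9563.5 in cells with neither. All 19 Mki67+Top2a+ cells of library 1 and 50 of 61 of library 2 carried at least 5 microglia markers.

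The 3′ ends of the members are shown first because summed levels differed by how the annotated transcripts end. Sequences came from the GENCODE M21 transcripts of build GRCm38, matched by gene identifier for 67 of 67 members. The search used the 16-base pattern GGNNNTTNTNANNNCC, with 6 base pairs required in the stem, on the transcript strand. A match was found in 46 members, and 26 of these carried the identical stem-loop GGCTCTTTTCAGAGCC. Another 7 members, all H4 genes, carried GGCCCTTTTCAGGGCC, and 6 members carried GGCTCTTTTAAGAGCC. The stem-loop is in capitals in the following examples, which include members with the largest and the smallest difference between cell classes.
Hist1h2ap: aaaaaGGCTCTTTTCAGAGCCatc
Hist1h2ae: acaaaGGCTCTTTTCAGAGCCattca
Hist1h1c: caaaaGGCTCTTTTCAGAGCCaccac
Hist3h2a: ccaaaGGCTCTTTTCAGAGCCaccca
Hist1h4d: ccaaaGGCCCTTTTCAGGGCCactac
Hist1h3c: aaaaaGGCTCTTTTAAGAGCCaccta
Hist2h2ac: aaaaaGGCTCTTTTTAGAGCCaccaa
The stem-loop was identical in Hist1h2ap, Hist1h2ae, Hist1h1c and Hist3h2a, but the annotated ends differed. The Hist1h2ap transcript stops 3 bases past its stem-loop, that of Hist1h2ae 151, that of Hist1h1c 840 and that of Hist3h2a 1643 bases past it.

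By this measure 23 members ended within 100 bases of the stem-loop (3 to 74 bases), 23 extended 100 bases or more (108 to 4884 bases) and 21 had no match. A polyadenylation hexamer lay in the last 50 bases of 12 of the extended transcripts, of 1 that ended near the stem-loop and of 3 without a match. A missing match says only that these letters are not in the annotated transcript, since several such models hold little beyond the coding sequence.

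Of the 67 members, 63 had at least 1 UMI in a kept cell. Hist1h3h, Hist1h2ah, Hist1h2ba and Hist1h2aa had 0 UMIs in both libraries, for which the upper limits are 0.116 and 0.148 CPM. Hist1h2ba and Hist1h2aa encode testis variants, and the testis linker histone Hist1h1t had 2 UMIs. The histone total was 25329 UMIs. Hist1h1c, Hist1h1e and Hist1h2bc held 49.4% of it and the 12 members with most UMIs 82.9%. These shares are of UMIs and are not corrected for length or for how each 3′ end was captured. In each library 37 members reached 20 UMIs, 36 of them in both, while 24 members had fewer than 20 UMIs in all.

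Summed over the 67 members, histone mRNA was 5.96-fold (5.60 to 6.34) higher in Mki67+Top2a+ cells than in cells with neither gene in library 1, and 4.75-fold (4.52 to 4.99) higher in library 2. The level was 3218 CPM (3030 to 3415) in the 19 Mki67+Top2a+ cells and 540.1 CPM (531.1 to 549.3) in cells with neither in library 1. In library 2 it was 2078 CPM (1988 to 2170) and 437.5 CPM (427.5 to 447.7). Cells with 1 of the genes lay near the cells with neither: 702.3 CPM, or 1.30-fold (1.16 to 1.46), in library 1, and 420.3 CPM, or 0.961-fold (0.901 to 1.02), in library 2. Mki67+Top2a+ cells were 0.558% and 3.17% of kept cells and held 7.34% and 19.5% of the histone UMIs, so most histone UMIs came from cells with neither gene.

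Because the classes differ in depth, each cell was also thinned to 1000 UMIs. After thinning, a histone UMI was seen in 100% of Mki67+Top2a+ cells (82.4 to 100) and 36.0% of cells with neither (34.4 to 37.7) in library 1, with 78 of the latter left out as too shallow. In library 2 the shares were 75.4% (62.7 to 85.5) and 31.4% (29.1 to 33.7), with 15 cells with neither left out. Unthinned, they were 100% and 87.3% in library 1 and 98.4% and 88.0% in library 2. A thinned Mki67+Top2a+ cell carried 2.74 and 1.92 different members on average, against 0.484 and 0.405 in cells with neither. The difference was therefore present at equal UMIs per cell. The classes were still set by detection of Mki67 and Top2a at full depth, which thinning does not undo.

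Member by member, levels were compared as the log2 ratio of CPM after adding 10 CPM to each side, which understates the difference of members with few UMIs, and a member was called at 2-fold on that scale. In library 1, 19 of the 37 members with at least 20 UMIs were called higher in Mki67+Top2a+ cells, where 5.62% of all genes tested were. Hist3h2a alone was called lower, where 2.28% of all genes were. In library 2, 15 of 37 were called higher (3.30% of all genes) and 0 lower (1.21% of all genes). The median log2 ratio was 1.08 and 0.82, against -0.05 and -0.03 over all genes tested. Some members reached 20 UMIs only through the Mki67+Top2a+ cells: 2 in library 1 (Hist2h3c2 and Hist1h3c) and 7 in library 2 (Hist2h2aa1, Hist2h2bb, Hist1h2ak, Hist1h3f, Hist1h3c, Hist1h2bb and Hist1h4a).

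There were 14 members called higher in both libraries, 73.7% of the calls of library 1 and 93.3% of those of library 2. Leaving out the members that reached 20 UMIs only through Mki67+Top2a+ cells, 18 of 35 and 13 of 30 were called higher, 12 of them in both libraries. The 14 included Hist1h1a, Hist1h1b, Hist1h1d and Hist1h1e among linker histones and Hist1h2ab, Hist1h2ae, Hist1h2ak, Hist1h2ap and Hist2h2ac among H2A genes. The others of the 14 were Hist1h2bj of the H2B genes, Hist1h3c, Hist1h3d and Hist1h3e of the H3 genes, and Hist1h4d. Of the 14, Hist1h3c and Hist1h2ak were not among the 12. Of the 36 members tested in both libraries, 30 had ratios above 0 in both, Hist3h2a and Hist2h2be had ratios below 0 in both, and 4 had opposite signs. The value of Hist2h2be rested on 0 UMIs in Mki67+Top2a+ cells of library 1 and 4 UMIs in those of library 2. Among cells with at least 5 microglia markers of library 2, Hist2h2be was at 3.48 CPM in Mki67+Top2a+ cells and 1.26 CPM in cells with neither. The first of these values rests on at most 4 UMIs, too few to give a direction.

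**Figure D1:**
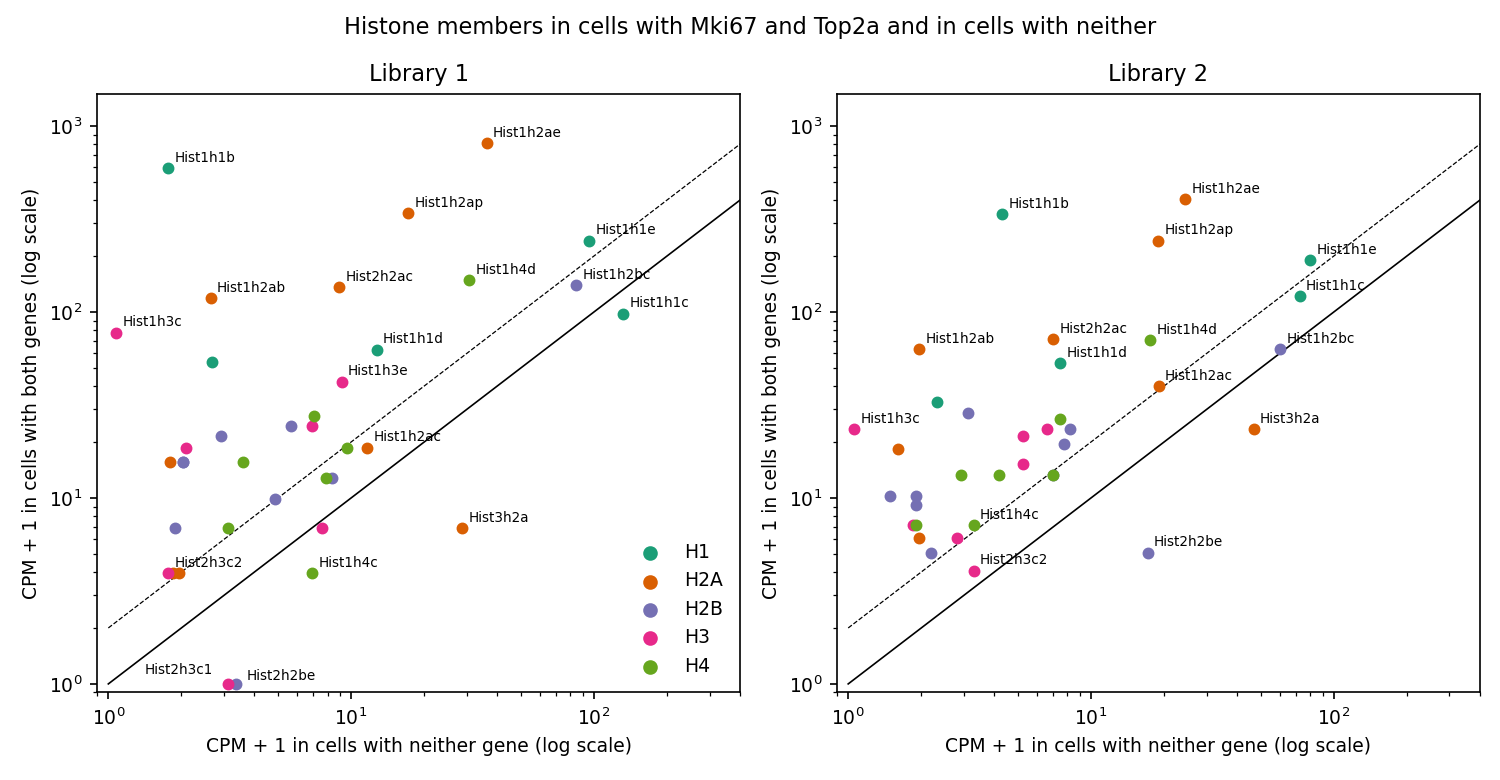
CPM + 1 of each member with at least 20 UMIs in cells with neither Mki67 nor Top2a (x axis, log scale) and in Mki67+Top2a+ cells (y axis, log scale), 1 point per member, coloured by histone class, with a panel per library. The solid line marks equal values and the dashed line a 2-fold difference on this scale. Hist1h1b lies farthest above the line in both panels, at 592 against 0.760 CPM and 334 against 3.31 CPM, and Hist3h2a lies below it in both.

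Linker histones, which bind the DNA between nucleosomes, held both the largest and some of the smallest differences. Hist1h1b had 201 UMIs in the 19 Mki67+Top2a+ cells and 19 UMIs in the 3326 cells with neither of library 1, or 592 CPM (513 to 680) against 0.760 CPM (0.458 to 1.19). In library 2 it had 327 UMIs in Mki67+Top2a+ cells and 55 in cells with neither, or 334 CPM (299 to 373) against 3.31 CPM (2.49 to 4.30). It was detected in 18 of 19 and 39 of 61 Mki67+Top2a+ cells, but in 0.421% and 2.37% of cells with neither. Mki67+Top2a+ cells thus held most of its UMIs in both libraries.

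Hist1h1c was higher in Mki67+Top2a+ cells of library 2, while the interval of its ratio took in 1 in library 1. Its level was 97.2 CPM (66.9 to 136) in Mki67+Top2a+ cells and 131 CPM (127 to 136) in cells with neither in library 1, a ratio of 0.742 (0.510 to 1.04). In library 2 it was 120.7 CPM (99.9 to 145) and 71.5 CPM (67.5 to 75.7), a ratio of 1.69 (1.38 to 2.04). Hist1h1c thus had no common direction, while its cells with neither held 3275 and 1190 UMIs, the most of any member in library 1.

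Hist1h1e and Hist1h1d stood between these. Hist1h1e was 2.54-fold (2.01 to 3.17) and 2.40-fold (2.05 to 2.80) higher in Mki67+Top2a+ cells, from 94.98 and 79.2 CPM in cells with neither. Its gene overlaps Hist1h2be on the same strand, and its last 300 bases share all their 31-base words with another member, so its reads are uncertain. Hist1h1d was 5.26-fold (3.21 to 8.19) and 8.03-fold (5.64 to 11.3) higher, at 61.8 and 52.2 CPM in Mki67+Top2a+ cells.

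H2A genes, which encode a core histone of the nucleosome, gave the largest class difference, 14.2-fold (12.9 to 15.6) in library 1 and 7.70-fold (7.09 to 8.34) in library 2. Hist1h2ae was at 810 CPM (717 to 911) in Mki67+Top2a+ cells and 35.2 CPM (32.9 to 37.6) in cells with neither in library 1. In library 2 it was at 404 CPM (365 to 446) and 23.4 CPM (21.1 to 25.8). The 23.0-fold and 17.3-fold differences rested on 275 and 395 UMIs in Mki67+Top2a+ cells.

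Hist1h2ap was at 339 against 16.2 CPM in library 1, a 20.9-fold difference (16.8 to 25.8), and at 241 against 17.97 CPM in library 2, or 13.4-fold (11.3 to 15.98). Every 31-base word of its last 300 annotated bases also occurs in another member, so how its reads were assigned is uncertain. Hist1h2ab was at 118 against 1.64 CPM and at 62.4 against 0.962 CPM, with 72.2% of such words shared. Hist2h2ac, from the Hist2 cluster, was at 135 against 7.92 CPM and 70.6 against 6.01 CPM. Hist1h2ac differed less, with ratios of 1.65 (0.602 to 3.65) and 2.15 (1.495 to 3.03).

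Hist3h2a was the exception among H2A genes. It had 2 UMIs in the 19 Mki67+Top2a+ cells of library 1, or 5.89 CPM (0.713 to 21.3), against 27.6 CPM (25.6 to 29.8) in cells with neither, a ratio of 0.213 (0.0257 to 0.772). In library 2 it was at 22.5 CPM (14.1 to 34.1) from 22 UMIs against 45.8 CPM (42.6 to 49.2), a ratio of 0.491 (0.306 to 0.749). Both intervals lay below 1. Hist3h2a overlaps Trim17 on the same strand, so how its reads were counted is uncertain.

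H2B genes, which encode the partner of H2A, differed least as a class, by 2.55-fold (2.06 to 3.14) and 1.99-fold (1.71 to 2.31). Hist1h2bc, which held most H2B UMIs, was at 138 CPM (102 to 184) against 83.4 CPM (79.9 to 87.1) in library 1 and at 62.4 CPM (47.7 to 80.1) against 59.2 CPM (55.6 to 63.0) in library 2. In library 2 its interval of the ratio, 0.7996 to 1.37, took in 1. Hist1h2bj was 10.7-fold (4.10 to 23.9) and 13.1-fold (7.64 to 22.3) higher, from 7 and 27 UMIs in Mki67+Top2a+ cells.

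Among H3 genes, another core histone, Hist1h3c was found almost wholly in Mki67+Top2a+ cells: 26 of its 29 UMIs in library 1 and 22 of 25 in library 2. Cells with neither gave 2 UMIs and 1 UMI. Hist1h3c reached 20 UMIs only through Mki67+Top2a+ cells in both libraries, so it entered the tested set only because it was high there. The ratio was 957 with an interval of 240 to 8317 in library 1 and 374 with an interval of 60.5 to 15444 in library 2, so its size is poorly known. Hist1h3e was 5.05-fold (2.71 to 8.67) and 4.02-fold (2.41 to 6.46) higher, though its last 300 bases share all their 31-base words with another member. Hist2h3c1 had 0 and 5 UMIs, and Hist2h3c2 1 and 3 UMIs, in Mki67+Top2a+ cells, too few to place them.

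H4 genes as a class were 3.71-fold (2.92 to 4.65) and 3.99-fold (3.32 to 4.78) higher. Hist1h4d was at 147 against 29.6 CPM in library 1 and 69.5 against 16.5 CPM in library 2, ratios of 4.97 (3.66 to 6.63) and 4.21 (3.18 to 5.50). Hist1h4c gave 1 UMI in Mki67+Top2a+ cells of library 1 and 6 in library 2, with ratios of 0.497 (0.0125 to 2.81) and 2.69 (0.928 to 6.40), both of which take in 1.

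**Figure D2:**
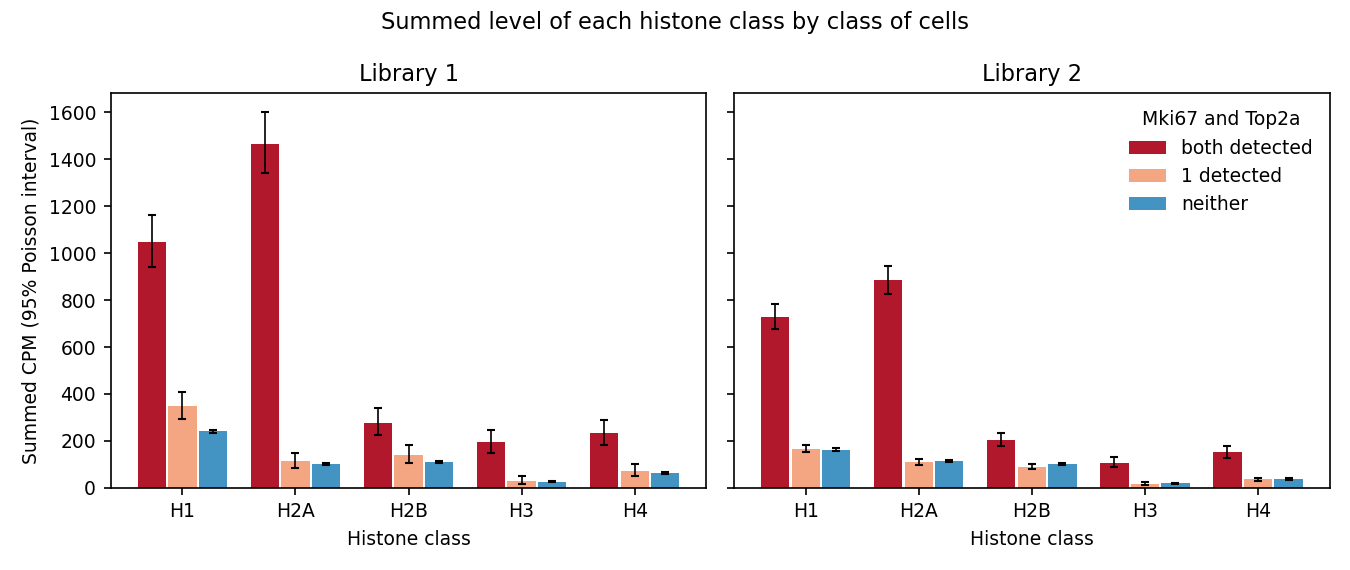
Summed CPM of each histone class (y axis) in cells with both Mki67 and Top2a, with 1 of them and with neither, with a panel per library and bars drawn with exact 95% Poisson intervals. H2A reaches 1466 and 884.5 CPM in Mki67+Top2a+ cells and 103 and 115 CPM in cells with neither, while H2B reaches 277 and 204.5 CPM against 108 and 103 CPM.

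The makeup of histone mRNA differed with these folds. H2A genes held 19.1% of histone UMIs in cells with neither and 45.6% in Mki67+Top2a+ cells in library 1, and 26.3% and 42.6% in library 2. H2B genes went from 20.1% to 8.60% and from 23.5% to 9.84%. H1 genes held 44.5% and 32.6% in library 1 and 37.0% and 35.1% in library 2.

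Summed levels also differed by annotated 3′ end, while the single members of the groups overlapped. In library 1 the log2 ratios ran from -0.06 to 3.73 for members ending near the stem-loop and from -1.25 to 4.18 for extended members. There 7 of 10 near-ending members, 8 of 21 extended members and 4 of 6 without a match were called higher, where 5.62% of all genes were. In library 2 these counts were 5 of 10, 7 of 21 and 3 of 6, where 3.30% of all genes were called higher. Some of these members reached 20 UMIs only through Mki67+Top2a+ cells. In library 1 they were Hist1h3c (near-ending) and Hist2h3c2 (extended). In library 2 they were Hist2h2aa1, Hist1h3c and Hist1h2bb (near-ending), Hist1h3f and Hist1h4a (extended), and Hist1h2ak and Hist2h2bb (no match). Summed, those ending within 100 bases of the stem-loop were 17.1-fold (14.9 to 19.6) and 13.03-fold (11.6 to 14.7) higher in Mki67+Top2a+ cells, from 45.3 and 38.0 CPM in cells with neither. Those extending 100 bases or more were 3.91-fold (3.58 to 4.27) and 3.43-fold (3.21 to 3.67) higher, from 402 and 316 CPM. Extended members held 74.4% and 72.2% of histone UMIs in cells with neither, and 48.9% and 52.2% in Mki67+Top2a+ cells. Detection followed the same grouping: 10 of 23 near-ending members, 21 of 23 extended members and 6 of 21 without a match reached 20 UMIs in each library. These counts include the members that did so only through Mki67+Top2a+ cells. The groups also differ in shared sequence. Near-ending members share 38.9% to 100% of the 31-base words of their last 300 bases with other members. Most extended members share 0%, though some share up to 100%. The part of shared sequence in detection and in these sums was not tested.

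Single members weigh heavily in these sums. Hist1h2ae, with its hexamer and its end at 151 bases, is the extended member with the largest difference, and without it the extended group was 2.08-fold and 2.32-fold higher. Without Hist1h1c the same group was 5.44-fold and 3.94-fold higher. Members with no match were 9.39-fold (8.29 to 10.6) and 5.96-fold higher, and 78.3-fold and 17.9-fold higher without Hist1h2bc. Hist1h1b gave 201 of the 296 and 327 of the 488 UMIs of this group in Mki67+Top2a+ cells, and without it the group was 3.04-fold and 2.05-fold higher. How the libraries were primed is not given in the sources used here, and its part in these differences was not tested.

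**Figure D3:**
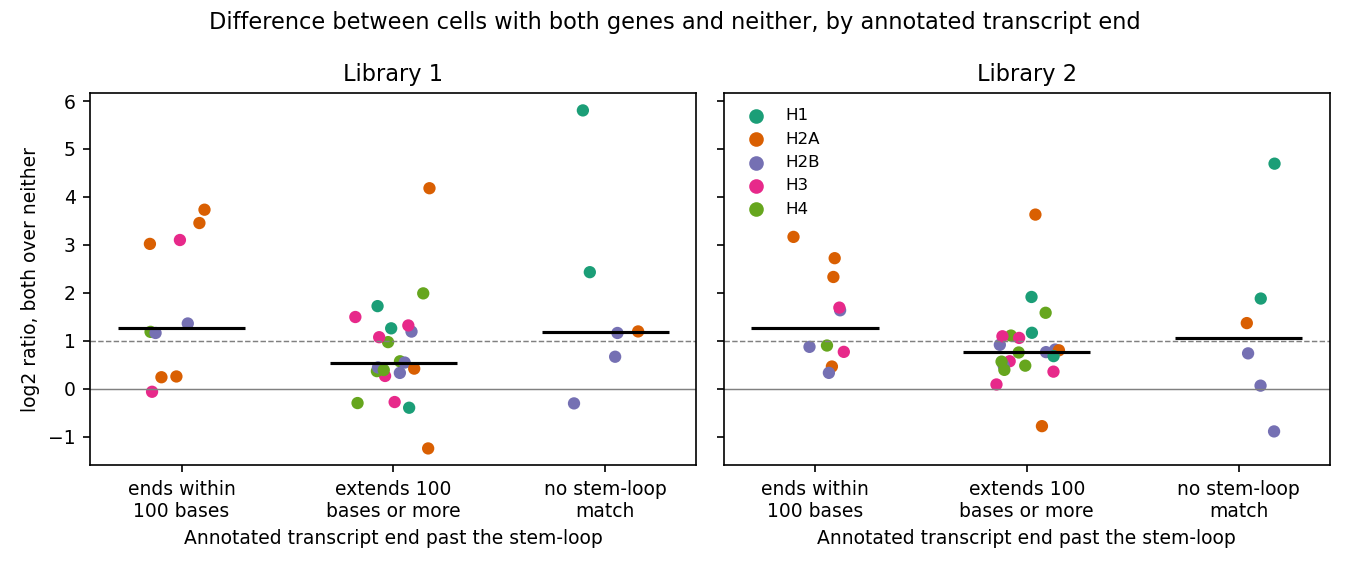
Log2 ratio of CPM + 10 between Mki67+Top2a+ cells and cells with neither (y axis) for each member with at least 20 UMIs, grouped by how its annotated transcript ends (x axis), with a panel per library. Points are members coloured by histone class, horizontal bars are medians and the dashed line is the 2-fold call. The medians are 1.27 in both libraries for members ending within 100 bases and 0.55 and 0.76 for those extending farther. Points and medians include members that reached 20 UMIs only through Mki67+Top2a+ cells.

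Promoter sequence was examined because many members differed together. RefSeq promoters of build GRCm38.p6, from 250 bases before to 50 after the start, were matched for 61 of 67 members. Both strands were searched, so a match may belong to a neighbouring gene on the other strand and be counted for both genes. CCAAT, a box bound by NF-Y, was present in 52 of 61, against 37.4% of all promoters in the table, and in every H1, H2A, H2B and H3 promoter matched but 3 of 12 H4 promoters. TATAAA was present in 35 of 61 (13.6% of all promoters). The octamer ATGCAAAT, bound by POU factors, was present in 7 of 17 H2A and 6 of 16 H2B promoters and in none of the H1, H3 and H4 promoters matched (1.74% of all promoters). AAACACA, the H1 box, was present in 5 of 6 H1 promoters (7.18% of all promoters). The 250 bases before the start are printed for the members with most UMIs in Mki67+Top2a+ cells and in cells with neither, and for the member with the largest difference, with matches in capitals.
Hist1h2ae (RefSeq H2ac8, chr13:23571221-23571470, minus strand): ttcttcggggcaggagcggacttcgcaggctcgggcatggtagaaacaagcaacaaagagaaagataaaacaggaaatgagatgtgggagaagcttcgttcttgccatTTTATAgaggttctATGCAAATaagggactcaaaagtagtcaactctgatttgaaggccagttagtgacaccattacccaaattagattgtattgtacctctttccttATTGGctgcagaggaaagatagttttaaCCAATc
Hist1h1c (RefSeq H1f2, chr13:23738557-23738806, plus strand): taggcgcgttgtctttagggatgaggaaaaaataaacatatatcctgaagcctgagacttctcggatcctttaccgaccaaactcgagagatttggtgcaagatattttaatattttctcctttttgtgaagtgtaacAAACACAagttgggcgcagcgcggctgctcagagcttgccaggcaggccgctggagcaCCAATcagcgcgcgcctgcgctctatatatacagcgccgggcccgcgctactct
Hist1h1b (RefSeq H1f5, chr13:21780626-21780875, minus strand): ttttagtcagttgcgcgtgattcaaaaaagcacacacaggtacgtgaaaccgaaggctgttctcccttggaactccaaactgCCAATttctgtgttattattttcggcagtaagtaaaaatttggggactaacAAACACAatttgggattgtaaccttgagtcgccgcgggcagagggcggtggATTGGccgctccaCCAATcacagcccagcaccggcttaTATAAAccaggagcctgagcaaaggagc
The linker genes Hist1h1c and Hist1h1b both hold an H1 box followed by a CCAAT box, at -112 and -54 and at -117 and -53 from the start. In Hist1h2ae the TATAAA match lies in reverse at -142, near the octamer at -128, so it is not placed as a TATA box of Hist1h2ae.

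Histone mRNA was spread unevenly among the Mki67+Top2a+ cells themselves. The lowest, median and highest cell had 446, 3513 and 7821 CPM in library 1 and 0, 1683 and 6786 CPM in library 2. The 5 highest of 19 cells held 42.8% of the class's histone UMIs, and the 15 highest of 61 held 49.3%. Across cells of the class, the histone level had a Spearman correlation of 0.46 in both libraries with the summed level of 20 S-phase genes, and of 0.35 and 0.48 with that of 20 G2 and M genes (n = 19 and 61 cells). The cells of a library are not independent samples and ran from 9462 to 62960 and from 2624 to 33918 UMIs, and the values are a description. The correlation of the histone level with depth was -0.32 and 0.04. Some Mki67+Top2a+ cells therefore had histone levels like those of cells with neither, whose median was 390.5 and 329.7 CPM.

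**Figure D4:**
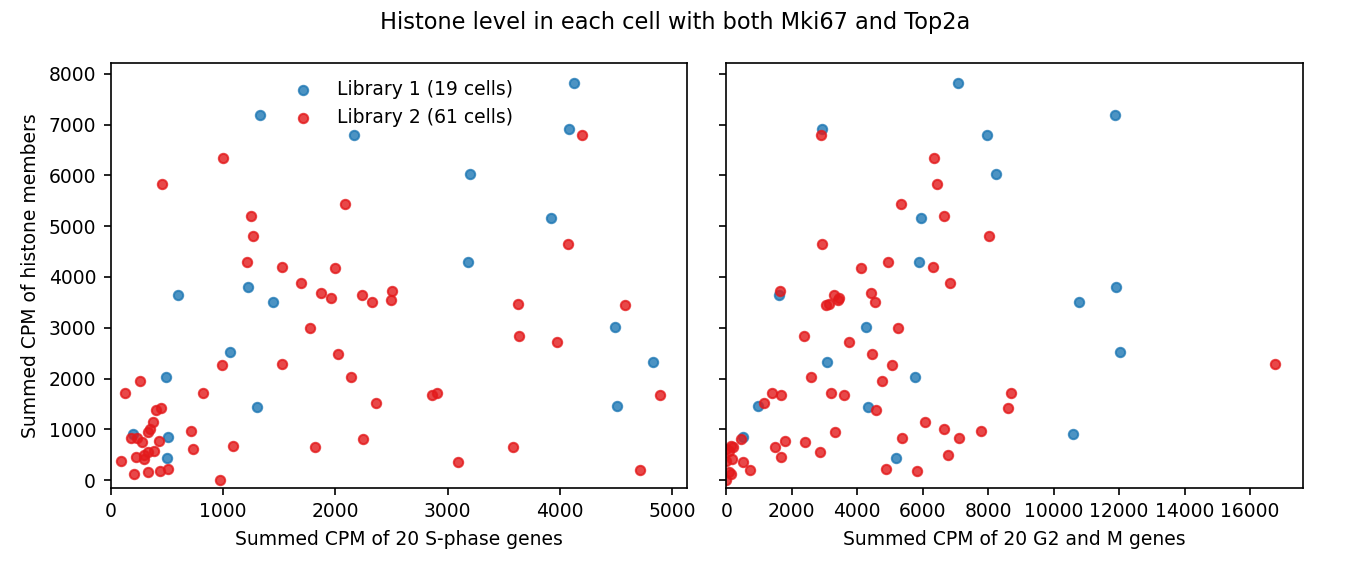
Summed histone CPM of each Mki67+Top2a+ cell (y axis) against its summed CPM of 20 S-phase genes (left) and of 20 G2 and M genes (right), 1 point per cell, coloured by library. Cells range from 446 to 7821 CPM in library 1 and from 0 to 6786 CPM in library 2.

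Cells with neither gene seldom reached such levels. At or above the median of Mki67+Top2a+ cells were 19 of 3326 cells in library 1, or 0.571% (0.344 to 0.891), and 27 of 1644 in library 2, or 1.64% (1.09 to 2.38). Cells that copy DNA could lack Mki67 and Top2a UMIs, so cells with neither were split by S-phase genes detected after thinning to 1000 UMIs. At least 3 S-phase genes were detected in 6 and 4 cells, whose histone level was 334 CPM (183 to 560) and 261 CPM (135 to 455). With 0 S-phase genes detected it was 540 CPM (530 to 551) and 451 CPM (440 to 463). The level in these few cells was not above that of cells with 0 S-phase genes. The upper limits of both intervals, which cover counting error only, lay below the 3218 and 2078 CPM of Mki67+Top2a+ cells. With 14 and 12 histone UMIs from 6 and 4 cells, the split cannot decide whether cells with neither that copy DNA carry more histone mRNA.

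The genes that work with histones were taken from lists. The 20 S-phase genes summed to a 7.82-fold and 8.08-fold difference, and 16 of 19 and 19 of 20 with at least 20 UMIs were called higher. Rrm2, a subunit of ribonucleotide reductase, was at 141 against 0.120 CPM and 136 against 0.661 CPM, whereas Pcna, the sliding clamp of DNA polymerase, was 1.92-fold (1.45 to 2.48) and 2.34-fold (1.91 to 2.85) higher. All 20 G2 and M genes were called higher in each library, with a summed difference of 38.0-fold and 41.5-fold. Mki67 and Top2a, which drew the classes, are also genes of dividing cells, so these differences follow in part from the rule. Some listed genes reached 20 UMIs only through Mki67+Top2a+ cells, such as Hmmr and Nusap1 in library 1 and Rrm2 in both libraries. No gene of these 2 lists, or of the 3 that follow, was called lower. Over all genes tested, 5.62% and 3.30% were called higher and 2.28% and 1.21% lower.

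Of the genes of histone transcription and 3′ processing, 6 of 16 and 5 of 17 were called higher, and the list summed to a 2.02-fold and 1.94-fold difference. Those called in both libraries were Slbp, Eri1, E2f1, Ccne1 and Ccne2. The processing genes Lsm10, Lsm11, Cpsf2, Cpsf3, Sympk and Cstf2 were called in neither library. Slbp, which encodes the stem-loop binding protein, was at 218 against 101 CPM, or 2.16-fold (1.69 to 2.72), and at 178 against 65.5 CPM, or 2.71-fold (2.30 to 3.19). Npat, the coactivator of histone gene clusters, was at 17.7 against 11.2 CPM and 15.3 against 10.2 CPM, and the intervals of its ratio took in 1 in both libraries. Ccne1, a cyclin that acts with Cdk2 at the start of S phase, was at 55.9 against 0.520 CPM and 74.6 against 1.02 CPM. Ccne1 in library 1 and Ccne2 in both libraries reached 20 UMIs only through Mki67+Top2a+ cells. Eri1, an exonuclease of histone mRNA ends, was 3.67-fold (2.59 to 5.06) and 2.45-fold (1.86 to 3.17) higher.

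Histone chaperones, which carry and deposit histones, summed to a 2.19-fold and 2.02-fold difference, with 6 and 7 of 15 called higher. Asf1b was at 109 against 1.36 CPM and 75.7 against 3.79 CPM. Hjurp, the chaperone of the centromeric histone, was 7.01-fold (5.65 to 8.60) and 5.18-fold (4.44 to 6.03) higher.

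Replacement histones summed to a 1.32-fold (1.28 to 1.35) and 1.73-fold (1.68 to 1.77) difference, with 5 of 10 and 4 of 11 called higher and a median log2 ratio of 1.75 and 0.60. The sum was set by 1 gene: without H3f3b it was 3.36-fold and 2.75-fold higher. H3f3b, which encodes the variant H3.3 and supplied most UMIs of the list, was at 10873 against 10733 CPM and 3890 against 3074 CPM. H3f3a, the other H3.3 gene, had ratios of 1.25 (1.12 to 1.39) and 1.29 (1.20 to 1.39). H1f0, a linker histone of resting cells, had ratios of 1.05 (0.666 to 1.59) and 1.12 (0.843 to 1.46). H2afz, which encodes H2A.Z, was 6.93-fold (6.46 to 7.43) and 5.42-fold (5.12 to 5.74) higher, and H2afx, the variant phosphorylated at DNA breaks, was 27.7-fold (22.7 to 33.6) and 12.9-fold (11.1 to 15.01) higher. Cenpa, the centromeric H3, was at 327 against 4.68 CPM and 289 against 8.30 CPM.

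Between the libraries, the summed histone level in cells with neither gene was 540.1 CPM (531.1 to 549.3) in library 1 and 437.5 CPM (427.5 to 447.7) in library 2. Of 40 members with at least 20 UMIs, 1 was called higher in library 2, where 2.94% of all genes were, and 0 lower, where 1.87% were. The median log2 ratio was -0.04, against 0.01 over all genes. These calls use the pseudocount of 10 CPM, and several members below the call had intervals apart from 1. The ratio of library 2 to library 1 was 0.546 (0.511 to 0.584) for Hist1h1c, 0.318 (0.210 to 0.469) for Hist1h4h, 0.386 (0.263 to 0.554) for Hist1h4c and 4.35 (2.54 to 7.76) for Hist1h1b. Since the libraries are not tied to conditions, this compares 2 libraries and nothing else.

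The member called was Hist2h2be, whose product is a variant H2B known from olfactory sensory neurons. It had 59 UMIs in library 1 and 268 in library 2, or 2.36 CPM (1.80 to 3.05) and 16.1 CPM (14.2 to 18.2), a 6.82-fold difference (5.13 to 9.21). Its UMIs were concentrated: cells with at most 2 of the 7 microglia markers were 3.55% and 7.86% of kept cells and held 61.7% and 90.2% of its UMIs. Among cells with neither gene and at least 5 microglia markers it was at 0.866 and 1.26 CPM, and no member was called between the libraries there.

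Cells with at least 3 of the sensory neuron markers Omp, Gnal, Gng13 and Stoml3, and at most 2 microglia markers, numbered 16 and 40. They held 43.3% and 88.0% of the Hist2h2be UMIs, at 186 CPM (122 to 273) and 494 CPM (434 to 560). Hist2h2be was detected in 7 of 16 and 36 of 40 of these cells, with a median of 8433 and 10915 UMIs a cell. In cells with at least 5 microglia markers it was detected in 0.591% and 1.53%, with a median of 7404 and 10067.5 UMIs a cell. The cell classes by marker were defined after results were known.

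Hist1h2bc was also higher in cells with sensory neuron markers, at 415 CPM (315 to 537) and 374 CPM (322 to 432), against 81.1 CPM (77.6 to 84.7) and 47.9 CPM (44.6 to 51.3) in cells with microglia markers. In the 10 and 15 cells with ensheathing glia markers it was at 358 CPM (209 to 573) and 467 CPM (348 to 615). Hist1h1e was at 64.4 CPM (29.5 to 122) and 50.8 CPM (32.9 to 74.96) in cells with sensory neuron markers and at 98.7 CPM (94.9 to 103) and 89.0 CPM (84.5 to 93.6) in cells with microglia markers. The summed histone level in cells with sensory neuron markers was 1174 CPM (1001 to 1368) and 1416 CPM (1313 to 1525), against 572 and 500.5 CPM in all cells with microglia markers.

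**Figure D5:**
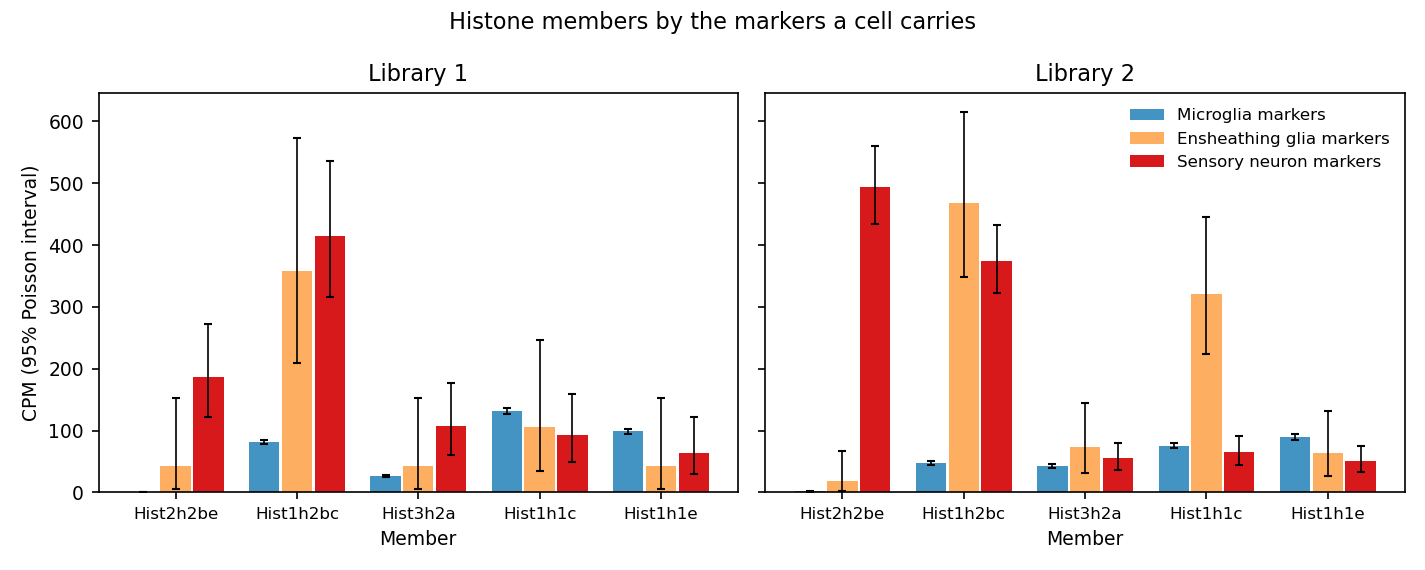
CPM of 5 members (x axis) in cells with microglia, ensheathing glia or sensory neuron markers, with a panel per library and exact 95% Poisson intervals. Hist2h2be stands at 186 and 494 CPM in cells with sensory neuron markers and at 0.841 and 1.44 CPM in cells with microglia markers.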

How the data were processed

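The authors deposited 1 matrix of UMI counts, not normalized, with genes as rows and barcodes of both libraries as columns. Per the file headers it came from Cell Ranger 3.1.0 in format version 2. Per the submitters' processing notes bcl2fastq and UMI-tools were used too. For the genome build, annotation and priming, the sources used here give nothing. Barcodes under 200 genes or above 20% mitochondrial UMIs were left out, and no doublet caller was run. Counts were summed per library and class of cells and divided by the class's UMI total (CPM). Ratios used a pseudocount of 10 CPM, a minimum of 20 UMIs in the library and a call at 2-fold. Intervals are exact (Poisson, Clopper-Pearson or conditional binomial) at 95% and cover counting error only. A value of 0 allows 3 counts. Thinning drew 1000 UMIs a cell.

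The members and gene lists were chosen with earlier results of these data known. The H1 box, the cell classes by marker and the groups by transcript end were added after results were known. Members given with values were the 12 with most UMIs and the 6 with the largest and 6 with the smallest mean ratio. Of the lists, the genes given with values were fixed ones (Slbp, Npat, H2afz, H2afx, H3f3a, H3f3b, H1f0, Cenpa, Pcna) or those with the highest CPM or largest ratio. Hist1h2bj and the other members were named as examples after their values were seen. Alternatives covered the cell filter, microglia-marker cells, depth, totals, the Mki67 and Top2a rule, the pseudocount, the UMI minimum and left-out members or cells. The ratio step was tested on simulated data. Python 3.11.15, NumPy 2.4.6, SciPy 1.17.1, pandas 2.3.3 and matplotlib 3.10.9 were used.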

Additional observations from a re-analysis of the deposited data

Results flagged for a closer look

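Barcodes left out by the cell filter also held histone UMIs. The 432 barcodes left out of library 1 summed to 268.3 CPM (225.0 to 317.6) and the 512 left out of library 2 to 448.3 CPM (407.5 to 492.0), above the 5.96 and 3.03 CPM that a count of 0 allows. Their median depth was 817 and 1514 UMIs, and 0 of them carried both Mki67 and Top2a.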

How the results depend on the processing

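No paired analysis was possible because each library is 1 pool of mice and no value comes from a test. Of the summary values, 101 stayed within their interval or within 1.5 times their count and 55 moved. Of 331 values of single members over 9 alternatives, 293 stayed, 36 moved and 2 changed sides. Hist2h2be in library 2 had a ratio of 2.75 among cells with at least 5 microglia markers, and Hist1h4c in library 1 a ratio of 3.23 without the 5% deepest cells. In all kept Mki67+Top2a+ cells of those libraries these members had 4 UMIs and 1 UMI, so both ratios are poorly known. The cause of changes was not tested.

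With Mki67 or Top2a detected, 9 and 5 members were called higher, the sums were 1808 and 864.7 CPM, the folds 3.35 and 1.98 and the median log2 ratio of library 2 was 0.27. With at least 2 UMIs of each gene, the sum and fold of library 2 were 2491 CPM and 5.69. With a pseudocount of 1 CPM, 30 members were called in library 2, the medians were 1.87 and 1.83, 4 members were called between libraries and the median between libraries was -0.17. Without a minimum beyond 1 UMI, the median of library 2 was 0.57. Among members with under 50% of shared 31-base words, 10 and 9 of 26 were called. For the alternative rules and pseudocount, the shares of all genes called were not computed.

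Only cells with at least 5 microglia markers gave 2203 and 406 CPM and a fold of 5.42 in library 2, and 0 members called between libraries. Without the 5% deepest cells, Mki67+Top2a+ cells had 4515 and 2253 CPM, the folds were 8.38 and 5.21 and the median of library 1 was 1.41. Most Mki67+Top2a+ cells of library 1, whose median was 14564 UMIs, were among the deepest 5% and were left out here. The library 1 values rest on the few that remained. With mitochondrial, ribosomal protein and haemoglobin genes out of the totals, the sums were 3511 and 592 CPM in library 1 and 2448 and 521 CPM in library 2. Without Hist1h1c, cells with neither had 409 and 366 CPM, Mki67+Top2a+ cells of library 2 had 1957 CPM and the folds were 7.63 and 5.35. Without the cell with most histone UMIs, library 1 had 2985 CPM and a fold of 5.54.

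By transcript end, extended members were 5.44-fold and 3.94-fold higher without Hist1h1c and 2.08-fold and 2.32-fold without Hist1h2ae, and members with no match 78.3-fold and 17.9-fold without Hist1h2bc and 3.04-fold and 2.05-fold without Hist1h1b. Replacement histones were 3.36-fold and 2.75-fold higher without H3f3b. The share of cells with a histone UMI follows depth. In cells with neither it was 22.9%, 55.8% and 87.3% in library 1 and 18.2%, 49.97% and 88.0% in library 2 at 500 UMIs, 2000 UMIs and unthinned. In Mki67+Top2a+ cells of library 2 it was 49.2% at 500 UMIs and 98.4% unthinned. With 19 and 61 Mki67+Top2a+ cells, members of few UMIs cannot be placed.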
